A study of Mus musculus with 3 samples.

Results

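The 9 genes described here encode transcription factors of the intestinal epithelium that are not nuclear receptors: Cdx1, Cdx2, Gata4, Klf4, Klf5, Elf3, Maf, Creb3l3 and Prdm1. They were compared with the list of regions bound by ESRRA, the estrogen-related receptor α, in villus cells of the mouse duodenum. A peak was given to a gene when its midpoint lay within 30 kb of any annotated start site of that gene, the distance at which the study linked binding to genes. By this rule 6 of the 9 genes had a peak, and 9 of the 1639 ESRRA peaks were theirs. The remaining genes, Cdx1, Klf4 and Prdm1, had none and are kept here as negatives. The study's target genes also had to be downregulated in Esrra−/− epithelium by RNA-seq, a criterion that was not applied here. The source of every library was duodenal epithelium, labelled as adult villus cells, from wild-type (WT) mice. Per the study's methods these were C57BL/6 animals on regular chow, and their exact age is not given in the sources used here. Chromatin was precipitated with an Esrra antibody in 2 ChIP libraries, and 1 input library was left unprecipitated. Both ChIP libraries were merged before peaks were called, and so the values below have no replicate error. The list gives a position for each peak and no height, every peak is 601 bp wide, and the depth behind a peak is unknown. How this width was set is not given in the sources used here, so whether a midpoint is the summit of the signal is unknown. A peak list holds no expression values, so the villus cell label could not be checked against marker genes.

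ESRRA is an orphan nuclear receptor known for driving genes of mitochondrial respiration together with the coactivators of the PGC-1 family. It binds an extended half-site, written TCAAGGTCA, whose core AAGGTCA and shorter core AGGTCA are both shared with other receptors. The 9 genes encode proteins of other DNA-binding classes. CDX1 and CDX2 are caudal homeobox proteins, and CDX2 specifies intestinal identity. GATA4 is a zinc finger protein that sets the character of the proximal small intestine. KLF5 is linked to proliferating crypt cells, whereas KLF4 is linked to goblet cells and to cells that leave the cell cycle. ELF3 is an epithelial ETS factor required for normal enterocyte differentiation, and MAF is a basic leucine zipper protein of mature enterocytes. CREB3L3 is a membrane-bound factor of liver and intestine that controls lipid genes, and PRDM1 (BLIMP1) is a repressor that holds the fetal intestinal state before weaning.

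The sequences that carried the ESRR half-site are shown first, since they are the part of a peak to which the receptor could bind directly. They were read from the mouse genome build NCBI m37 (mm9). AAGGTCA was present 6 times in the 9 peaks, in 5 of them, and capitals mark it below. Each sequence runs 5′ to 3′ on the strand that reads AAGGTCA, with 11 bases on either side.
Cdx2 first site, chr5:148105915-148105943, minus strand: gcgccttccccAAGGTCAatggagcagcc
Cdx2 second site, chr5:148106084-148106112, minus strand: tacggagaacaAAGGTCAgccgacttcgc
Gata4, chr14:63864579-63864607, plus strand: aactggcccttAAGGTCAgtgcctagaga
Klf5, chr14:99702453-99702481, plus strand: tgccttctaatAAGGTCAggagggcacct
Elf3 peak 1, chr1:137152676-137152704, plus strand: aagggggttggAAGGTCAagagaaggtaa
Creb3l3 peak 2, chr10:80546165-80546193, minus strand: tttctgtgttcAAGGTCAatctggtctac
Only the last of these carried the complete TCAAGGTCA. Counted from 1 at the 5′ end of TCAAGGTCA, the first Cdx2 site differed by T1C and the Gata4 site by C2T. The Klf5 site differed by T1A and C2T, and the Elf3 site by T1G and C2G. The first Creb3l3 peak held only the shorter core AGGTCA, with the differences T1C and A3C, and is added because it lay closest to a midpoint. Capitals mark its 9 bases.
Creb3l3 peak 1, chr10:80553871-80553901, plus strand: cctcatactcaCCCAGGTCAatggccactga

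Longer stretches of 201 bases around the midpoint are given for peaks of contrasting composition, on the plus strand. The Cdx2 stretch is shown because it held both of its half-sites, which appear in capitals as their reverse complement. The second of these, TGACCTTTG, is also the reverse complement of CAAAGGTCA, a sequence bound by HNF4.
Cdx2, chr5:148105921-148106121: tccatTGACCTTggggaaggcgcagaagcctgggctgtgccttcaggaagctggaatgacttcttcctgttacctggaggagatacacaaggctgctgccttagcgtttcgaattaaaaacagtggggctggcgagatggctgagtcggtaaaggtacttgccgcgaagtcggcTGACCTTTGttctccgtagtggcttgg
The Maf stretch lies within the coding exon and is shown because it is the most GC-rich peak of the list. The Klf5 stretch is shown as the opposite case, AT-rich and with a run of CA repeats. Neither holds a match to any sequence searched, and neither has capitals.
Maf peak 1, chr8:118230197-118230397: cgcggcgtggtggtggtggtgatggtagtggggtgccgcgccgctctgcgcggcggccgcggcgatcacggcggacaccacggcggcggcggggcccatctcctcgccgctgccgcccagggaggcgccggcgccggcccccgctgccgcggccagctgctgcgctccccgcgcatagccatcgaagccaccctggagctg
Klf5, chr14:99702206-99702406: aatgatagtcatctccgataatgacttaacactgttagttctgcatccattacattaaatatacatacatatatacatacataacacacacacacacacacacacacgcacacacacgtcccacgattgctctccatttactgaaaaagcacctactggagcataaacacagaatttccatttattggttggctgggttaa

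ESRRA peaks lay close to most of these genes. Cdx2, Gata4, Klf5, Elf3, Maf and Creb3l3 had at least 1 peak within 30 kb, that is 6 of 9 genes, where 8.75% of the 22367 annotated protein-coding genes had one. Of the 9 genes, 5 had a peak within 10 kb, against 4.64% of all genes, and 3 had one within 1 kb, against 2.08%. Elf3, Maf and Creb3l3 had a pair of peaks each, whereas 2.05% of all genes had 2 or more. The median distance from a start site to the nearest peak was 4.4 kb over the 9 genes and 448 kb over all protein-coding genes. No test was made of these counts, because the genes were chosen with earlier results of this peak list known and because genes are not replicates.

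By the rule, the 6 genes with a peak lay within 30 kb in this measure and the negatives beyond it. That separation is therefore not a finding. Gata4 was the nearest, with a peak midpoint 381 bp from a start site, and 1.29% of all protein-coding genes had a peak at least as near. Maf followed at 699 bp (1.78% of genes) and Creb3l3 at 769 bp (1.84%). Elf3 was at 2436 bp (2.62%) and Klf5 at 4396 bp (3.21%). Cdx2 was the most distant of the 6, at 12825 bp (5.19%). The negatives began at 258 kb, so that no gene of the 9 had its nearest peak between 12.8 and 258 kb. Without replicates, neighbours in this order such as Maf and Creb3l3, 70 bp apart in distance, cannot be ranked.

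**Figure D1:**
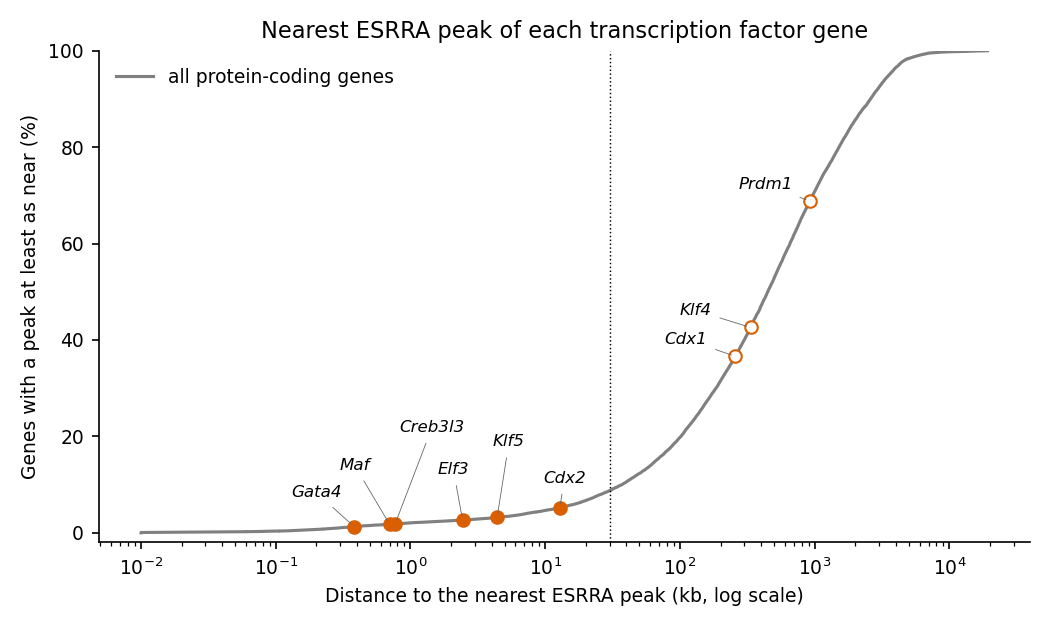
Distance from a start site to the nearest ESRRA peak in kb, on a log scale, against the percentage of all protein-coding genes with a peak at least as near; the grey line is all 22367 genes, and the dotted line marks 30 kb. Filled circles are the 6 genes with a peak within 30 kb, from Gata4 at 0.381 kb to Cdx2 at 12.8 kb, and open circles are Cdx1, Klf4 and Prdm1, from 258 to 918 kb.

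Of the caudal homeobox genes, Cdx2 had a peak and Cdx1 had none. The Cdx2 gene (ENSMUSG00000029646.3) is on the minus strand at chr5:148112381-148118846. Its peak (chr5:148105721-148106321) lay 12.8 kb downstream of the only annotated Cdx2 start site, and its midpoint was 6.36 kb past the 3′ end of the gene, in intergenic sequence. Cdx2 was the protein-coding gene with the nearest start site. Pdx1, a homeobox gene of pancreas and duodenum, had a start site 24.5 kb away, and Prhoxnb one 28.0 kb away. The peak stood alone, with the next ESRRA peak 537 kb away. Its pair of half-sites lay 92 bp and 77 bp from the midpoint, on either side of it and on the strand of the gene. Cdx1 (ENSMUSG00000024619.8), on the minus strand of chromosome 18, had no peak within 100 kb, and the nearest midpoint was 258 kb from its start site. Within 30 kb of the Cdx1 start site, TCAAGGTCA was present 2 times and AAGGTCA 20 times in the genome sequence, none of them in a peak.

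Gata4 carried a single peak at an internal promoter (chr14:63864189-63864789). The gene (ENSMUSG00000021944.8, chr14:63817759-63890529, minus strand) has 6 start sites from 7 transcripts, and 3 of those sites lie close together. The midpoint was 381 bp upstream of the nearest of these. For the 3 transcripts that begin farther upstream it lay in their only intron, 26 kb downstream of the first start site. No base of the peak lay in an annotated exon. It was rich in GC, at 62.4%, and held 41 CpG dinucleotides. The half-site lay 104 bp from the midpoint. A second AGGTCA without the preceding A lay 32 bp from the midpoint, and CAAAGTCCA, the binding sequence of HNF4, lay 230 bp from it. No other protein-coding gene had a start site within 30 kb of this peak.

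Of the Krüppel-like factors, Klf5 had a peak and Klf4 had none. Klf5 (ENSMUSG00000005148.7, chr14:99697910-99712624, plus strand) had a peak (chr14:99702006-99702606) in intron 2 of 3, with the midpoint 4.4 kb downstream of its only start site. The peak was free of exon bases and had a GC content of 38.3%, the lowest of the 9. Its half-site lay 161 bp from the midpoint, on the strand of the gene. No other protein-coding start site lay within 30 kb, and the next peak was 148 kb away. Of its 578 words of 24 bases, 27 (4.67%) had over 10 copies genome-wide. Each of the 18 words that hold the whole half-site was found once. Words with over 10 copies made up 8.65% of Maf peak 2, 3.98% of Creb3l3 peak 2 and 0.346% of Maf peak 1. The other peaks of the 9 had none. Klf4 (ENSMUSG00000003032.7, chr4:55540013-55545347, minus strand) had no peak within 100 kb, and its nearest was 334 kb away. Klf4 also had no other protein-coding start site within 30 kb, and 3 TCAAGGTCA and 14 AAGGTCA sites lay within that distance of its 4 start sites.

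Elf3 (ENSMUSG00000003051.7, chr1:137150151-137155049, minus strand) had both peaks within its own transcription unit of 4899 bp. Peak 1 (chr1:137152313-137152913) covered exons 6 and 7 of 9, with 207 of its bases in coding sequence, and peak 2 (chr1:137150663-137151263) covered the start of exon 9, with 112 coding bases and 183 bases of the 3′ untranslated part. The midpoints were 2.44 and 4.09 kb downstream of the start site and 1.65 kb from each other. The AAGGTCA of peak 1 lay in the intron between exons 6 and 7, 77 bp from the midpoint and on the strand opposite to the gene, where another annotated gene, Gm16606, overlaps. Peak 2 held neither AAGGTCA nor AGGTCA. Within 30 kb of the Elf3 start site, TCAAGGTCA occurred 5 times, more often than at any other of the 9 genes, and none of these sites was in a peak. Rnpep, an aminopeptidase gene, had a start site 11.4 kb from peak 1 and 13.0 kb from peak 2.

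At Maf (ENSMUSG00000055435.6, chr8:118206842-118231694, minus strand) both peaks overlapped the first exon. All 601 bases of peak 1 (chr8:118229997-118230597) were coding sequence, and its midpoint was 699 bp downstream of the nearer start site. Peak 2 (chr8:118229141-118229741) was centred 856 bp farther on, with 88 coding bases and 513 untranslated bases of the single-exon transcript; for the transcript with 3 exons its midpoint lay in intron 1. The start site closest to peak 2 was that of Gm15655, an antisense transcript, at 463 bp. Neither peak held AAGGTCA or AGGTCA. The closest match to TCAAGGTCA had 3 mismatches in peak 1 and 2 mismatches in peak 2. The next protein-coding gene, Dynlrb2, had its start site 797221 bp from those of Maf. No other protein-coding start site thus lay within 30 kb of these peaks.

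Creb3l3 (ENSMUSG00000035041.8, chr10:80547069-80561619, minus strand) had a peak in the gene and a peak just past its end. Peak 1 (chr10:80553582-80554182) spanned exon 5 of the 12 exons of the coding transcript, with 298 bases in coding sequence and the midpoint in intron 5. It counted as a promoter peak only because a transcript with a retained intron, which is not typed as coding, begins 769 bp upstream; from the start site of the coding transcript it was 7.74 kb downstream. It lacked AAGGTCA but held AGGTCA 6 bp from its midpoint, in the form CCCAGGTCA. Peak 2 (chr10:80545637-80546237) began 832 bp past the 3′ end of the gene. It held the only complete TCAAGGTCA of the 9 peaks, 243 bp from its midpoint and so near its edge. Words that hold the core of this site had 1 or 2 copies in the genome. The protein-coding gene nearest to peak 2 was not Creb3l3 but Thop1, an oligopeptidase gene, at 4.32 kb. Map2k2 had a start site within 30 kb of both peaks, and Sgta within 30 kb of peak 2. The distance of 30 kb ended just short of a further peak, 30.4 kb from a Creb3l3 start site, whereas Cdx2 was the farthest of those inside it at 12.8 kb.

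**Figure D2:**
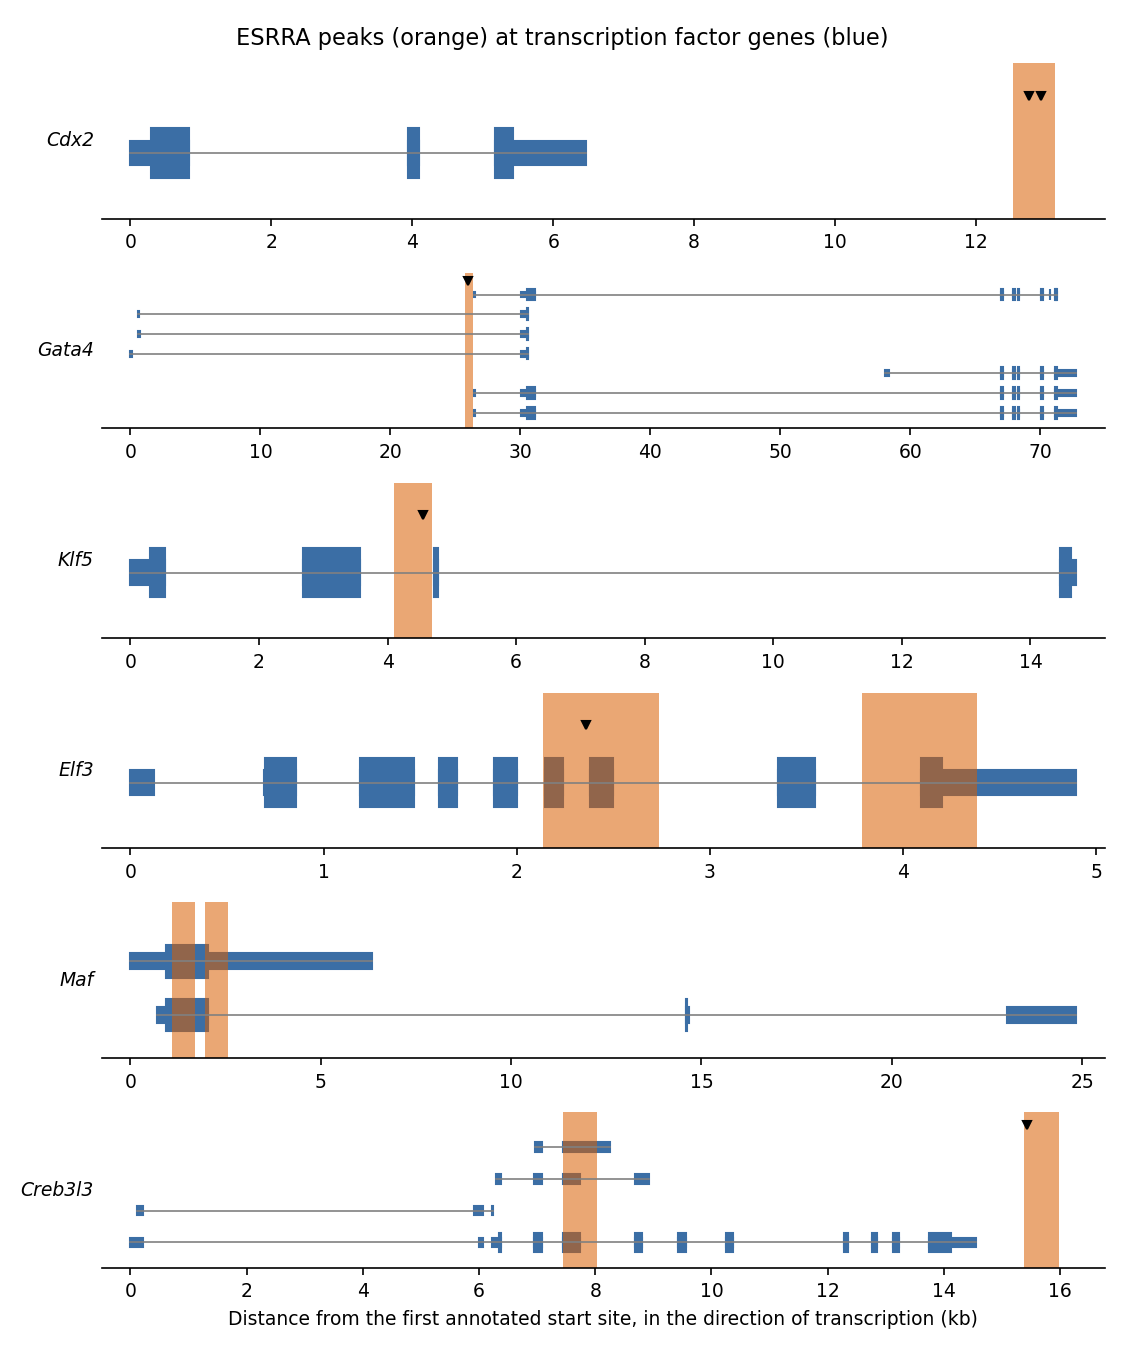
Gene models of the 6 genes with an ESRRA peak, drawn from the first annotated start site in the direction of transcription, in kb; each row is a transcript, tall blue boxes are coding exon parts, low boxes are other exon parts, orange bands are the 601 bp peaks and triangles are AAGGTCA sites. The Maf peaks lie over exon sequence, whereas the Elf3 peaks cover exons only in part. The Klf5 peak lies in intron 2 and the Gata4 peak before an internal start site at 26 kb. The Cdx2 peak and Creb3l3 peak 2 lie past the end of the gene.

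Prdm1 was the gene farthest from any peak. The gene (ENSMUSG00000038151.6, chr10:44156983-44248307, minus strand) has 3 start sites and a length of 91325 bp, and the nearest ESRRA peak was 918 kb away, a distance within which 68.8% of all protein-coding genes had a peak. TCAAGGTCA was absent within 30 kb of these start sites, whereas AAGGTCA was present 21 times. Over all 9 genes, 24 TCAAGGTCA and 155 AAGGTCA sites lay within 30 kb of a start site, of which 1 and 6 were in a peak. Of those sites, 5 and 55 were at the 3 genes without a peak. In the whole genome 0.564% of 56720 TCAAGGTCA sites and 0.206% of 504476 AAGGTCA sites were in a peak. A site without a peak was thus the usual case genome-wide. These shares are not limited to sequence near genes.

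Relatives of these factors were examined for comparison. A list of 50 other transcription factors of the same families or of the intestinal epithelium had 9 genes with a peak within 30 kb. This was 18%, against 8.75% of all protein-coding genes. Within 10 kb there were 2 (4%), against 4.64% of all genes. Expression of the listed genes in the intestine was not checked. Mafg had a peak at 13.0 kb and Mafk at 14.3 kb, although for both another gene had the nearer start site. Of 3 GATA genes Gata5 was the second with a peak, at 20.1 kb, again with another gene nearer. Klf5 and Klf7 (16.2 kb) were the only ones of 12 KLF genes, and Elf3 and Ets2 (16.4 kb) the only ones of 6 ETS genes. Creb3l3 was the only one of 6 CREB genes, Cdx2 the only one of 3 CDX genes, and neither PRDM gene examined had a peak. For Prdm16 the nearest peak was just beyond the limit of 30 kb, at 31.4 kb. These family counts cover the 9 genes and the 50 listed ones, not whole families. Other listed factors with a peak were Mlxipl, a carbohydrate-responsive factor, at 1.42 kb, Isx, an intestinal homeobox gene, at 23.7 kb, and Tcf7l2, a WNT effector, at 27.8 kb.

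Nuclear receptors, another large class of transcription factors, were listed without a check of their expression in the intestine. They had a peak within 30 kb at 8 of 29 genes (27.6%), against 8.75% of all protein-coding genes. Within 10 kb the share over all genes was 4.64%, and all 8 receptors had a peak there. These were Hnf4g at 0.033 kb, Ppara at 0.282 kb, Nr0b2 at 0.315 kb, Thra at 0.825 kb, Nr1d1 at 2.05 kb, Vdr at 3.01 kb, Nr1i2 at 6.97 kb and Hnf4a at 7.42 kb. Thra and Nr1d1 overlap at one locus, where each was credited with the same 4 peaks, 2 of them nearest to each gene. The nearest protein-coding start site was that of the factor itself for 8 of the 9 peaks of the enterocyte factors, for 14 of 18 gene and peak pairs of the nuclear receptors and for 8 of 12 of the other factors. The 18 pairs count the peaks shared by Thra and Nr1d1 under both genes. At every other receptor with a peak, its own start site was the nearest for each pair. No test was made of the differences between these lists.

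**Figure D3:**
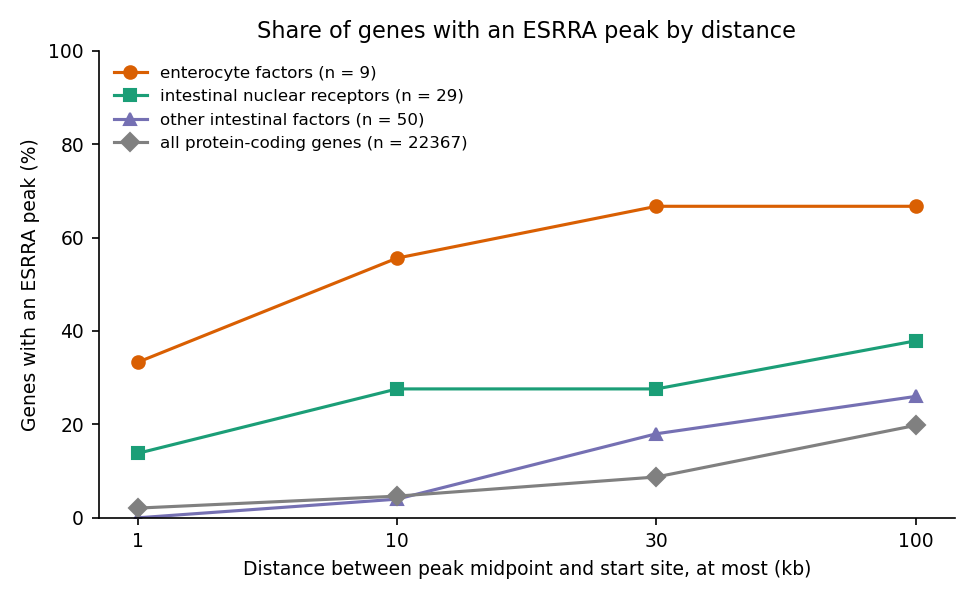
Percentage of genes with an ESRRA peak whose midpoint lies within 1, 10, 30 or 100 kb of a start site, for the 9 enterocyte factors, 29 intestinal nuclear receptors, 50 other intestinal factors (family relatives included) and all 22367 protein-coding genes. The 9 factors go from 33.3% at 1 kb to 66.7% at 30 and 100 kb, the nuclear receptors from 13.8% to 37.9%, the other factors from 0 to 26% and all genes from 2.08% to 19.8%.

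The share of the 9 peaks with AAGGTCA could not be told from that of the whole list. The sequence was found on either strand in 5 of 9 peaks (55.6%, 95% Wilson interval 26.7 to 81.1%) and in 44% of all 1639. The interval treats the 9 peaks as independent, although 6 of them are pairs at the same gene. Peaks in repeated sequence were set apart by taking, over the 24-base words of each peak, the median number of genomic copies. Those with a median of at most 10, here called single-copy, included all 9 and numbered 1315, of which 51.4% held AAGGTCA. TCAAGGTCA was found in 1 of 9 and in 14.3% of all peaks. AGGTCA, which lies within both longer sequences, was found in 6 of 9 and in 61.4% of all peaks. In windows of the same width 2 kb to either side of the 9 peaks, AAGGTCA was found in 2 of 18, and in 12.1% of the flanks of all peaks. TCAAGGTCA read backwards, ACTGGAACT, which served as a negative control, was found in 0 of 9 and in 0.427% of all peaks.

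None of the 6 AAGGTCA sites in the 9 peaks was within 50 bp of the midpoint of its peak. Of the 996 such half-sites in single-copy peaks, 35.8% lay there. Within 100 bp were 3 of the 6, and 59.0% of the 996. None was in an exon. The sites of Gata4, Klf5 and Elf3 were in introns, and those of Cdx2 and Creb3l3 were intergenic. With 6 sites, these shares were not precise enough to separate the 9 peaks from the rest.

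**Figure D4:**
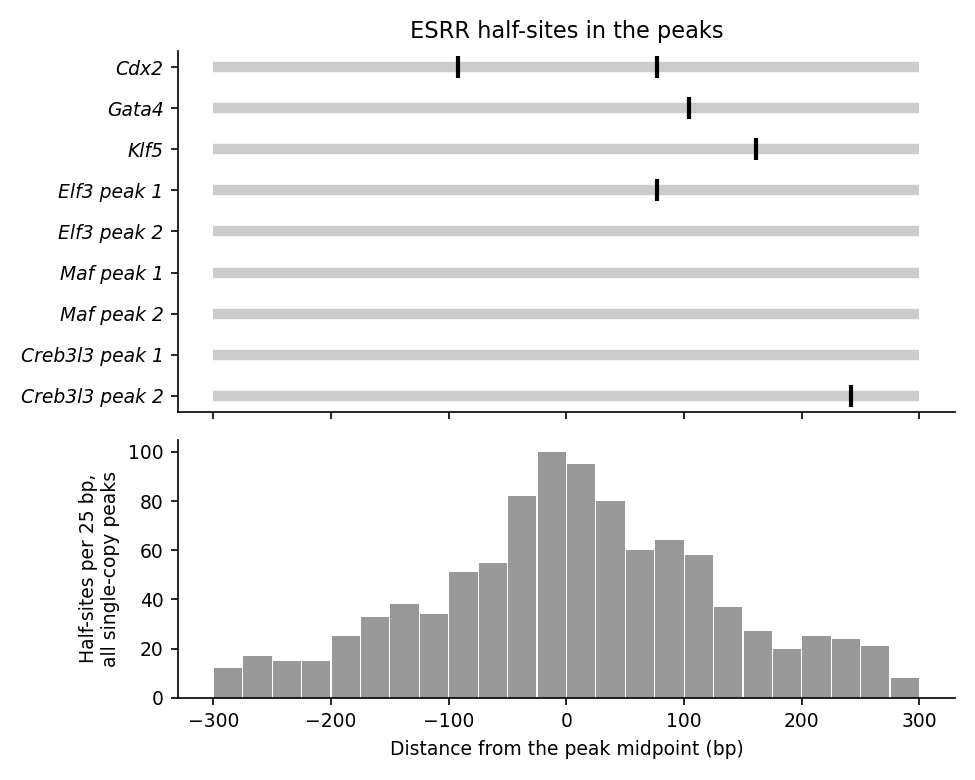
Positions of AAGGTCA, on either strand, relative to the midpoint of the peak in bp; the upper panel shows the 9 peaks as grey bars and each half-site as a black mark, and the lower panel counts the 996 half-sites of all single-copy peaks in steps of 25 bp. The 6 marks lie from 77 to 242 bp from the midpoint, whereas the counts of the lower panel are highest beside the midpoint.

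Binding sequences of the factor families were counted over the 9 peaks together, not for each factor at its own gene. The CDX sequence CCATAAA, the GATA sequence AGATAA, the KLF sequence CCNCACCC and the ETS sequence AGGAAGT were each found in 0 of the 9 peaks on either strand, and in 6.59%, 27.5%, 21.0% and 16.2% of all peaks. The CREB sequences TGACGTCA and TGACGTGG and the PRDM1 sequence GAAAGTGAA were likewise found in 0 of 9, and in 1.16%, 0.61% and 0.854% of all peaks. The MAF sequence TGCTGAC was found in 1 of 9, the second Creb3l3 peak, and in 8.24% of all peaks. Of the sequences of other intestinal factors, CAAAGTCCA of HNF4 was found in the Gata4 peak only and in 2.56% of all peaks, and CAAAGGTCA, which holds AAGGTCA, in the Cdx2 peak only and in 3.78% of all peaks. GTTAATNAT of HNF1 was in 0 of 9 and in 1.83% of all peaks. With 9 peaks, counts of 0 or 1 were not precise enough to separate them from the rest. The counts are matches of letters and say nothing about whether a factor was bound.

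The base composition of the peaks was uneven. The median GC content of the 9 was 55.4%, against 48.8% over all peaks and 50.4% over single-copy peaks. Maf peak 1 had the highest GC content of all 1639 peaks, 78.4%, and with 88 CpG dinucleotides it shared the highest CpG count with 1 other peak. Among the 9, the Gata4 peak was next with 62.4%. Elf3 with 56.1% and 55.4%, Creb3l3 with 56.6% and 55.2% and Cdx2 with 53.1% were close to each other, and Maf peak 2 was at 50.4% and Klf5 at 38.3%. The Maf peaks, which included this extreme, were among the 4 without AAGGTCA. The part of base composition in the Maf peaks was not tested.

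**Figure D5:**
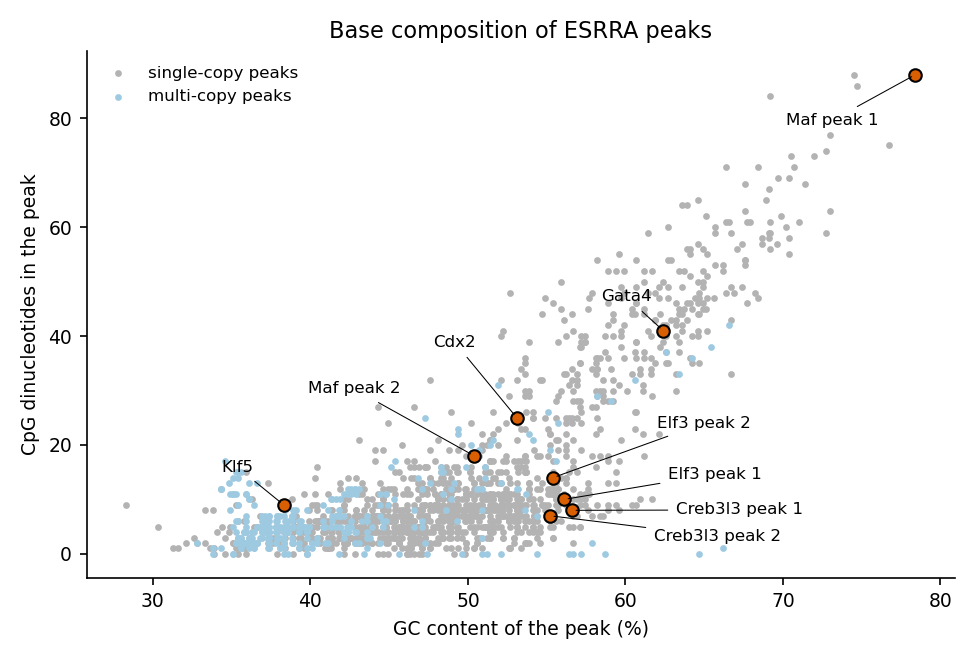
GC content in % against the number of CpG dinucleotides for each of the 1639 ESRRA peaks of 601 bp; grey points are single-copy and blue points multi-copy peaks, and the 9 peaks at enterocyte factors are orange and named. Maf peak 1 sits at the upper right end of the cloud (78.4%, 88 CpG), Gata4 at 62.4% and 41 CpG, and Klf5 at the lower left at 38.3% and 9 CpG.

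By their midpoints 4 of the 9 peaks were within 1 kb of a start site of any transcript, as were 29.8% of all peaks. A further 2 were in introns, 2 were intergenic and 1 was in a coding exon, classes that held 29.2%, 35.3% and 2.26% of all peaks. Bases of annotated exons were covered by 5 of the 9 peaks, those of Elf3, Maf and the first of Creb3l3, and by 30.8% of all peaks. In 3 of the 9 more than 300 of the 601 bases were exonic, which was so in 15.3% of all peaks. Of these 3, Creb3l3 peak 1 reached 599 exonic bases only through a transcript with a retained intron, and 298 of its bases were coding. Another peak lay within 30 kb of 6 of the 9 peaks, which are the pairs at Elf3, Maf and Creb3l3, and of 36.4% of all peaks.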

How the data were processed

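ESRRA ChIP-seq was measured in 2 libraries of duodenal villus cells, with 1 input library. Whether the ChIP libraries came from separate mice is not given in the sources used here. Per the submitters' processing notes and the study's methods, the authors aligned reads to mm9 with Bowtie2 (2.2.6), merged both libraries with SAMtools (0.1.19) and called peaks with MACS2 at p = 1e-05. The deposited values were a chromosome, a start and an end per peak. Merging hides peaks of 1 library, and weak and strong peaks count alike.

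Start sites came from GENCODE M1 on NCBI m37, the same build. Coordinates count from 1. Sequences were matched exactly on both strands. Word copies were counted in the whole genome. Functions were tested on simulated data. Python 3.11.15, numpy 2.4.6, numba 0.67.0 and matplotlib 3.10.9 were used. Intervals cover counting error only.

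All 9 genes, their peaks, neighbouring genes within 30 kb and listed relatives with a peak were named, except 1 relative that is not reported here. The genes and both comparison lists were chosen with earlier results of these data known.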

Additional observations from a re-analysis of the deposited data

How the results depend on the processing

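The count of 6 genes with a peak held with the nearest edge of a peak, the 5′-most start site, coding transcripts, single-copy peaks, the nearest gene only and joined peaks. A distance of 10 kb gave 5 genes (without Cdx2) and 1 kb gave 3 (Gata4, Maf and Creb3l3). The count of 9 peaks became 14 at 100 kb and 3 at 1 kb. All protein-coding genes with a peak numbered 1956 at 30 kb, 4423 at 100 kb, 1038 at 10 kb, 465 at 1 kb and 979 when a peak went to its nearest gene only. The other intestinal factors went from 9 to 2 at 10 kb and 0 at 1 kb, and nuclear receptors from 8 to 4 at 1 kb. The share of the 9 peaks with AAGGTCA, 55.6%, was 11.1% for TCAAGGTCA, 22.2% for TNAAGGTCA and 22.2% in the central part, within 100 bases of the midpoint. The median distance from peak to start site, 2436 bp, was 2136 bp from the peak edge, 4396 bp with the 5′-most start site, 1995.5 bp within 10 kb, 6555 bp within 100 kb and 3261 bp with peaks less than 1 kb apart joined. These shifts follow from the windows and sequences themselves. A stricter peak threshold and leaving out each ChIP replicate were not run, as they need scores or peaks per library. No paired analysis was possible because peaks were called once, on merged reads. The unknown depth limits every count, since weak peaks cannot be told from strong ones.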

Other observations

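Peaks between 30 and 100 kb of a start site were found at 2 of the 9 genes. Upstream of Gata4, a peak 53.6 kb from a start site (chr14:63943879-63944479) held 2 AAGGTCA sites, and no protein-coding start site was nearer than that of Gata4. At Creb3l3 such peaks lay at 30.4, 40.3 and 42.8 kb. Their nearest protein-coding gene was Zbtb7a, a zinc finger transcription factor gene outside the 9, at 5.9, 1.27 and 3.68 kb. They held 1, 2 and 3 AAGGTCA sites, whereas the peak 78.5 kb from Creb3l3, nearest to Eef2 at 0.705 kb, held 1. Of all 1639 peaks, 44% held at least 1.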
